A study of Mus musculus with 31 samples.

Results

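The transcripts of 8 gastrulation genes are described here: Mixl1, Eomes, Mesp1, Gsc, Lhx1, Tbx6, Evx1 and Pdgfra. They mark the primitive streak, the organizer at its anterior end and the mesoderm that leaves it. Each gene was represented by a probe set annotated to its symbol alone, and where a gene had several, by the one with the highest mean over all 31 arrays. All 8 genes were found among the 18194 genes measured in this way. Expression was measured on Affymetrix arrays in mouse iPSCs (induced pluripotent stem cells, here fibroblasts returned to an embryo-like state) and in embryoid bodies, the aggregates in which such cells differentiate on their own. The 4 groups are Nos3-/- iPSCs at day 0 (6 arrays), control iPSCs at day 0 (10 arrays), Nos3-/- embryoid bodies at day 11 (6 arrays) and control embryoid bodies at day 11 (9 arrays). Nos3-/- cells came from mice of the strain B6.129P2-Nos3tm1unc/J, which lack endothelial nitric oxide synthase, and control cells from wild type CD1 mice. All lines were reprogrammed by Sendai virus, starting from fibroblasts of the tail tip of adult males, were kept on inactive mouse embryonic fibroblast feeders while pluripotent, and formed embryoid bodies in AggreWell plates. Genotype and strain cannot be told apart in this design, and the labels do not say whether arrays of a group came from separate clones or cultures, so p-values measure the spread between arrays, which may be technical.

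The primitive streak is the furrow through which epiblast cells pass to become mesoderm and definitive endoderm at gastrulation. Nodal, Wnt and bone morphogenetic protein signals induce it, with strong Nodal signalling giving its anterior end and the organizer, where Gsc and Lhx1 are active, and Wnt and bone morphogenetic protein signals giving its posterior end, where Evx1 is active. Eomes and Mixl1 act early in the streak, Mesp1 marks nascent mesoderm that includes heart precursors, Tbx6 directs paraxial mesoderm, and Pdgfra is the receptor for platelet-derived growth factor A that mesoderm, primitive endoderm and fibroblasts carry. Levels are log2 intensities after robust multi-array averaging (RMA), so differences between groups are log2 fold changes. A level of a gene is compared between groups and never with that of another gene, since probe sets differ in brightness. In bulk RNA, fewer cells of a type and less RNA per cell cannot be told apart.

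Promoter sequence is shown for 5 of the 8 genes: Gsc and Lhx1, which differed most between genotypes at day 0 and correlated across arrays on both days, and Mesp1, Evx1 and Pdgfra, whose windows hold a core T-box motif, the kind of site bound by Eomes and Tbx6. Each line gives the 250 bases before the annotated start, 5′ to 3′ along the gene, from RefSeq on build GRCm38.p6, and capitals mark a motif match on either strand. The Gsc window is chr12:104473237-104473486, minus strand. The Lhx1 window is chr11:84525535-84525784, minus strand. The Mesp1 window is chr7:79793591-79793840, minus strand. The Evx1 window is chr6:52313248-52313497, plus strand. The Pdgfra window is chr5:75152001-75152250, plus strand.
Gsc: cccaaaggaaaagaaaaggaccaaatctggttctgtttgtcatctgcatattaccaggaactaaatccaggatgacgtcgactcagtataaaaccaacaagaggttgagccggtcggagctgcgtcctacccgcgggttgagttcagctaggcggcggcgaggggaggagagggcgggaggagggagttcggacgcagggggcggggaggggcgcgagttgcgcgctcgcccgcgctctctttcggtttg
Lhx1: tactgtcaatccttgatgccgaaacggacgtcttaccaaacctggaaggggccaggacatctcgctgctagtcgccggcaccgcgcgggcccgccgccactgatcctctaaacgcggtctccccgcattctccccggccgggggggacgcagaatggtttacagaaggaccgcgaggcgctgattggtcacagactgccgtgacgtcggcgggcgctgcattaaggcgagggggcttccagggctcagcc
Mesp1: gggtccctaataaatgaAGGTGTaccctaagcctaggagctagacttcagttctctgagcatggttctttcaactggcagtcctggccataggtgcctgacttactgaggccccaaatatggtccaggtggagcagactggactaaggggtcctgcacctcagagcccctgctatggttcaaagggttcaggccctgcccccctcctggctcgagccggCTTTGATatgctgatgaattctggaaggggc
Evx1: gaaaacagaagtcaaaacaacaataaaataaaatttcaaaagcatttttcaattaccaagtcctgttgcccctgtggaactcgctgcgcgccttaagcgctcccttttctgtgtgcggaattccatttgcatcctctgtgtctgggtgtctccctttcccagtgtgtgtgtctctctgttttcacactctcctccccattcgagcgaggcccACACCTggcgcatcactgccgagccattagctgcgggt
Pdgfra: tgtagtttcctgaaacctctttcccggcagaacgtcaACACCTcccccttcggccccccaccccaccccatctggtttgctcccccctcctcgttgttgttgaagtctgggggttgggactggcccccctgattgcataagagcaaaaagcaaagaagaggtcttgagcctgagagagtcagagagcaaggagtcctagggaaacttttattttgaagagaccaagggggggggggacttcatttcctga

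Of the 8 genes, 7 had a window in the RefSeq table, and it was searched from 250 bases before the start to 50 bases after it for 5 motifs on both strands. The core T-box motif AGGTGT was found in 3 of the 7 windows, and in 13.7% of all 32851 windows of the same length. In Mesp1 it lay 233 to 228 bases before the start and, as its reverse ACACCT, 8 to 13 bases after it, outside the printed stretch. Evx1 had the reverse form 38 to 33 bases before its start, and Pdgfra had it 213 to 208 bases before its start. The TCF/LEF motif CTTTGAT, read by the nuclear arm of Wnt signalling, was in 1 of the 7 windows (Mesp1, 31 to 25 bases before the start) and in 3.73% of all windows. The homeodomain core TAATTA was in 1 of 7, in Tbx6 at 231 to 226 bases before the start, and in 5.29% of all windows. TAATCC, the form read by Gsc and Otx2, and the Foxh1 motif TGTGGAT were in 0 of the 7 windows and in 7.06% and 3.38% of all windows. TAATCC and TAATTA share 4 letters, and no 2 matches in these windows overlapped. A match says that the letters are there and nothing about binding.

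Arrays of a group correlated with each other at a mean Pearson r between 0.975 and 0.991, except the Nos3-/- arrays numbered 3, at 0.971 on day 0 and 0.961 on day 11. These 2 arrays also had the lowest mean of 8 pluripotency genes in their groups, 8.64 at day 0, where the other Nos3-/- arrays ran from 11.04 to 11.58, and 7.89 at day 11, where they ran from 9.65 to 11.18. Calls for the 8 genes are therefore also given without them, a setting chosen after the data were seen. Pou5f1, which encodes a core pluripotency factor, averaged 12.69 ± 0.57 in Nos3-/- and 12.56 ± 0.16 in control iPSCs (SD, n = 6 and 10). Embryoid bodies expressed heart muscle genes, with Tnnt2, a thin-filament protein, higher at day 11 than at day 0 by 4.44 in Nos3-/- and by 4.73 in control (limma adjusted p = 4.71e-05 and 1.97e-07). The threshold for passing was an adjusted p under 0.05 (limma, Benjamini-Hochberg over all 18194 genes), and the genotype and time comparisons share arrays, so their results are not independent of each other.

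**Figure D1:**
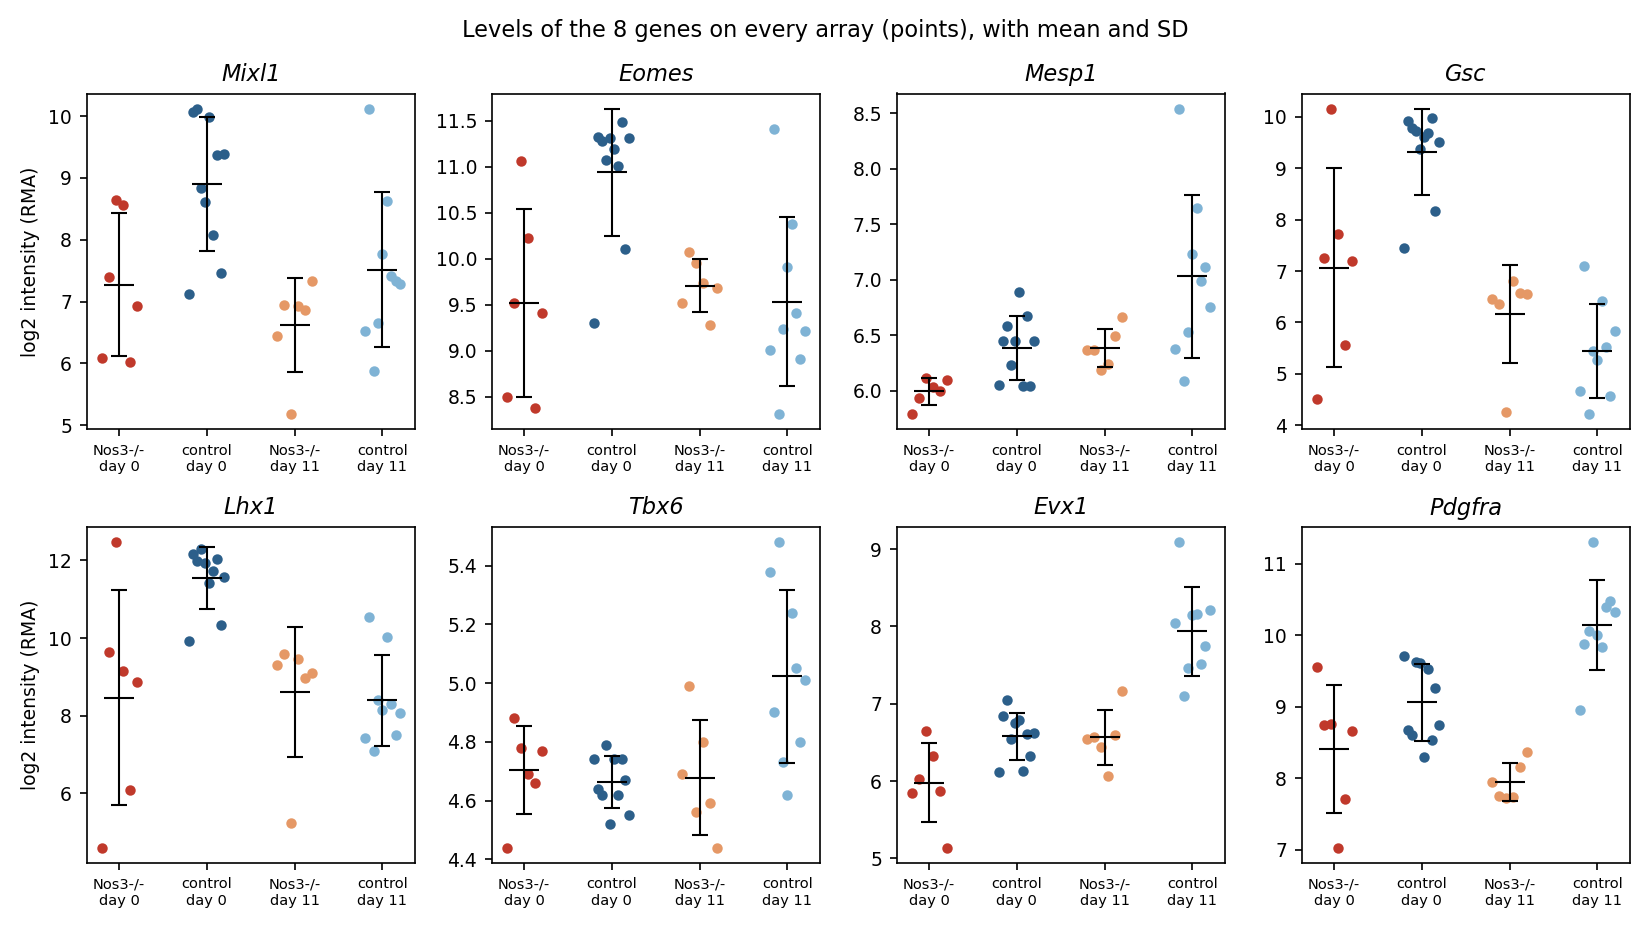
Log2 RMA intensity of each of the 8 genes on every array (points), with the group mean and SD (bars), in Nos3-/- and control cells at day 0 and day 11; each panel has its own axis. Gsc and Lhx1 spread over 4.52 to 10.15 and 4.60 to 12.47 on the Nos3-/- day 0 arrays, and Pdgfra at day 11 is the gene whose genotype groups do not overlap.

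At day 0, Nos3-/- iPSCs had lower mean transcript levels of early streak and organizer factors than control iPSCs. Of the 8 genes, 4 passed, all of them lower in Nos3-/- cells: Lhx1, Gsc, Mixl1 and Eomes. Over all genes, 7.47% passed in this direction. The median change of the 8 genes was -1.04, and that of all genes 0.01. In 0 of the 8 genes did the 2 genotypes fail to overlap, against 1.92% of all genes.

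Lhx1, a LIM-homeodomain factor of the organizer needed for head formation, ranged from 4.60 to 12.47 with a median of 9.01 on the Nos3-/- day 0 arrays, and from 9.92 to 12.29 with a median of 11.84 on the control arrays. The highest Nos3-/- array lay above every control array and the other 5 lay below every control array. The mean level was 8.47 ± 2.78 in Nos3-/- and 11.54 ± 0.79 in control cells (SD, n = 6 and 10), a log2 difference of -3.08 (SE 0.79, limma adjusted p = 0.00831), or an 8.43-fold lower level. The other Lhx1 probe set differed by -3.05.

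Gsc, a homeodomain repressor of the organizer and prechordal plate, ranged from 4.52 to 10.15 with a median of 7.23 in Nos3-/- cells, and from 7.44 to 9.98 with a median of 9.65 in control cells. Again a single Nos3-/- array lay above all control arrays, and 4 of the 6 lay below them all. Its means were 7.07 ± 1.94 in Nos3-/- and 9.32 ± 0.84 in control cells (SD, n = 6 and 10), a difference of -2.25 (SE 0.57, limma adjusted p = 0.00765). The Gsc and Lhx1 calls held when any 1 array was left out, with changes between -2.87 and -1.74 for Gsc and between -3.88 and -2.30 for Lhx1.

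Eomes, the T-box factor that opens the definitive endoderm and heart mesoderm programmes, ran from 8.38 to 11.06 with a median of 9.47 on the Nos3-/- day 0 arrays, and from 9.30 to 11.49 with a median of 11.24 on the control arrays. All 6 Nos3-/- arrays lay below the control median, and 7 of the 10 control arrays lay above the highest Nos3-/- array. The mean of Eomes was 9.52 ± 1.02 in Nos3-/- and 10.94 ± 0.69 in control cells (SD, n = 6 and 10), a difference of -1.42 (SE 0.39, limma adjusted p = 0.0126). Its other probe set differed by -1.64. The Eomes call was lost without Nos3-/- day 0 replicate 5 (-1.19, adjusted p = 0.0614).

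Mixl1, a paired-type homeodomain factor that shapes mesoderm and endoderm in the streak, ran from 6.02 to 8.64 with a median of 7.17 in Nos3-/- cells, and from 7.12 to 10.12 with a median of 9.10 in control cells. Here too the 6 Nos3-/- arrays lay below the control median, while 3 of them fell within the control range. Its means were 7.27 ± 1.15 in Nos3-/- and 8.90 ± 1.08 in control cells (SD, n = 6 and 10), a difference of -1.63 (SE 0.54, limma adjusted p = 0.0368). This call did not survive the omission of 1 of 8 arrays, which were Nos3-/- day 0 replicate 1, 2, 5 or 6 or control day 0 replicate 2, 3, 6 or 10, with adjusted p up to 0.132. Without Nos3-/- day 0 replicate 5, both Mixl1 and Eomes missed the threshold, and of the 8 genes Gsc and Lhx1 passed. The share of all genes that passed under that omission is not given here.

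Evx1 of the posterior streak and the mesoderm genes Pdgfra, Mesp1 and Tbx6 differed by less at day 0 and did not pass. Evx1, an even-skipped homeodomain factor of the posterior streak, ran from 5.14 to 6.65 with a median of 5.95 in Nos3-/- cells and from 6.12 to 7.05 with a median of 6.62 in control cells. Its difference was -0.60 (SE 0.22, limma adjusted p = 0.0601), and it passed without Nos3-/- day 0 replicate 3 (-0.74, 0.0190), without control day 0 replicate 1 (-0.65, 0.0419) and without control day 11 replicate 2 or 3 (-0.60, 0.0323 and 0.0459). It also passed with only the day 0 arrays in the fit (0.0431), with array weights (-0.62, 0.0490) and without genes below the lower tertile of level (0.0479). Evx1 levels of 4 Nos3-/- arrays lay below the lowest control array.

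Pdgfra ran from 7.03 to 9.56 with a median of 8.70 in Nos3-/- cells and from 8.30 to 9.71 with a median of 9.00 in control cells at day 0. Of the 6 Nos3-/- arrays 2 lay below the control range and 4 within it, and the difference was -0.65 (95% interval -1.27 to -0.03, limma adjusted p = 0.141). It passed without Nos3-/- day 0 replicate 1 (-0.88, 0.0413). The other 2 Pdgfra probe sets differed by -0.36 and -0.01.

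Mesp1, the basic helix-loop-helix factor of nascent heart mesoderm, lay between 5.79 and 6.11 with a median of 6.02 in Nos3-/- cells, and between 6.04 and 6.89 with a median of 6.45 in control cells. Of the 6 Nos3-/- arrays 4 lay below all control arrays, and the difference was -0.39 (95% interval -0.84 to 0.06, limma adjusted p = 0.234), which passed with only the day 0 arrays in the fit (0.0415). Tbx6, the T-box factor of paraxial mesoderm, lay between 4.44 and 4.88 with a median of 4.73 in Nos3-/- cells and between 4.52 and 4.79 with a median of 4.66 in control cells. Its difference was 0.04 (95% interval -0.17 to 0.25, limma adjusted p = 0.836), and the groups covered nearly the same range.

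Without the Nos3-/- arrays numbered 3, the 4 day 0 calls held, at -1.90 for Mixl1 (adjusted p = 0.0109), -1.73 for Eomes (0.0015), -2.87 for Gsc (5.69e-05) and -3.88 for Lhx1 (4.62e-05), and Evx1 also passed (-0.74, 0.0186).

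**Figure D2:**
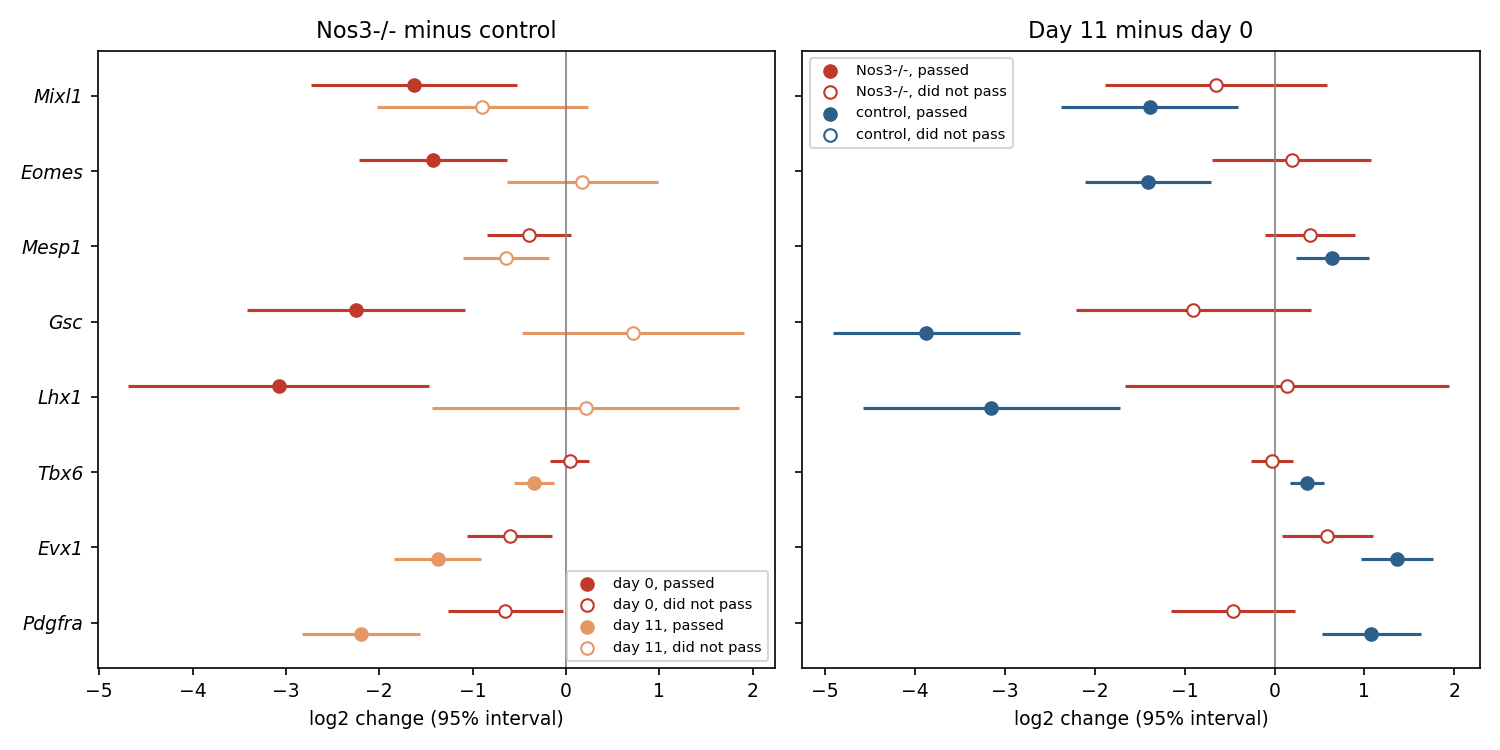
Log2 change of each gene with its 95% interval, for Nos3-/- minus control at day 0 and day 11 (left) and for day 11 minus day 0 in Nos3-/- and control (right); filled points passed at an adjusted p under 0.05. At day 0 the filled points are Mixl1, Eomes, Gsc and Lhx1, at day 11 they are Tbx6, Evx1 and Pdgfra, and over time all 8 are filled in control and 0 in Nos3-/-.

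At day 11 a different set of the 8 genes passed. Pdgfra, Evx1 and Tbx6 were lower in Nos3-/- embryoid bodies, 3 of 8 genes against 5.29% of all genes in this direction, and the 4 genes that passed at day 0 did not pass. Whether the genotype difference itself changed between days is tested below. The median change of the 8 genes was -0.49, and that of all genes 0.00. The groups failed to overlap for 1 of the 8 genes, Pdgfra, against 2.6% of all genes.

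Pdgfra ran from 7.72 to 8.36 with a median of 7.85 on the Nos3-/- day 11 arrays, and from 8.95 to 11.30 with a median of 10.06 on the control day 11 arrays. Every Nos3-/- array lay below every control array. Its means were 7.95 ± 0.26 in Nos3-/- and 10.14 ± 0.63 in control embryoid bodies (SD, n = 6 and 9), a difference of -2.19 (SE 0.31, limma adjusted p = 9.55e-06), or a 4.57-fold lower level. The other 2 Pdgfra probe sets differed by -1.09 and -1.22.

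Evx1 ran from 6.07 to 7.16 with a median of 6.56 in Nos3-/- embryoid bodies, and from 7.10 to 9.09 with a median of 8.04 in control ones. Of the 6 Nos3-/- arrays 5 lay below the lowest control array, and the sixth lay just above it. The means were 6.57 ± 0.35 in Nos3-/- and 7.94 ± 0.58 in control (SD, n = 6 and 9), a difference of -1.38 (SE 0.23, limma adjusted p = 9.05e-05). The day 11 calls of Pdgfra and Evx1 held when any 1 array was left out and under all other settings in which the gene was tested. Evx1 was not tested without genes below the median level, since its mean, 6.86, lay below that median, 7.42.

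Tbx6 ran from 4.44 to 4.99 with a median of 4.64 in Nos3-/- embryoid bodies, and from 4.62 to 5.48 with a median of 5.01 in control ones. All 6 Nos3-/- arrays lay below the control median and 5 of 9 control arrays lay above the highest Nos3-/- array. Its difference was -0.34 (SE 0.10, limma adjusted p = 0.0314), a 1.27-fold lower level. The mean Tbx6 level over all arrays, 4.78, lay below the lower tertile of genes, 6.03, and its signal was thus among the dimmer ones on these arrays. The call did not survive the omission of 1 of 7 day 11 arrays (Nos3-/- replicate 1, 3, 5 or 6 or control replicate 1, 3 or 6, adjusted p up to 0.0917), without the Nos3-/- arrays numbered 3 (-0.32, 0.0564), and with only the day 11 arrays in the fit (-0.34, 0.130).

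Mesp1 ran from 6.19 to 6.66 with a median of 6.37 in Nos3-/- embryoid bodies, and from 6.09 to 8.54 with a median of 6.99 in control ones. The control arrays spread more widely, and 6 of 9 lay above the highest Nos3-/- array. The difference was -0.64 (SE 0.22, limma adjusted p = 0.0685), and it passed without control day 11 replicate 1 (-0.72, 0.0344), 3 (-0.76, 0.0197) or 4 (-0.71, 0.0492) and with array weights (-0.75, 0.00501).

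The factors that passed at day 0 had overlapping groups at day 11. Mixl1 ran from 5.18 to 7.34 with a median of 6.90 in Nos3-/- and from 5.87 to 10.12 with a median of 7.34 in control embryoid bodies, a difference of -0.90 (95% interval -2.02 to 0.23, limma adjusted p = 0.375). Eomes ran from 9.28 to 10.07 with a median of 9.71 in Nos3-/- and from 8.31 to 11.41 with a median of 9.23 in control, a difference of 0.18 (95% interval -0.63 to 0.98, limma adjusted p = 0.871). The Nos3-/- arrays of Eomes lay inside the control range.

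Gsc ran from 4.25 to 6.81 with a median of 6.50 in Nos3-/- and from 4.22 to 7.09 with a median of 5.44 in control embryoid bodies, a difference of 0.72 (95% interval -0.47 to 1.91, limma adjusted p = 0.540). Lhx1 ran from 5.22 to 9.59 with a median of 9.20 in Nos3-/- and from 7.10 to 10.55 with a median of 8.14 in control, a difference of 0.21 (95% interval -1.43 to 1.86, limma adjusted p = 0.924). For each of Gsc and Lhx1, 5 of the 6 Nos3-/- arrays lay above the control median and replicate 3 lay far below it. Without the Nos3-/- arrays numbered 3, the day 11 differences were 1.10 for Gsc (adjusted p = 0.136) and 0.89 for Lhx1 (0.422), and those of Pdgfra and Evx1 were -2.15 (4.14e-05) and -1.35 (0.00017).

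Between day 0 and day 11, the organizer and early streak transcripts fell in control cells. Those of Evx1, a posterior streak gene, and of the mesoderm genes rose in control cells. In control all 8 genes passed, 4 lower at day 11 (Gsc, Lhx1, Eomes and Mixl1) against 18.2% of all genes, and 4 higher (Evx1, Pdgfra, Mesp1 and Tbx6) against 16% of all genes. Gsc had the largest fall of the 8, -3.87 (SE 0.51, limma adjusted p = 6.65e-07), with means of 9.32 ± 0.84 at day 0 and 5.45 ± 0.91 at day 11 (SD, n = 10 and 9). Lhx1 fell by 3.15 (SE 0.70, limma adjusted p = 0.000781). Eomes fell by 1.41 (SE 0.35, limma adjusted p = 0.002) and Mixl1 fell by 1.39 (SE 0.48, limma adjusted p = 0.0251). The Mixl1 call was lost without control day 11 replicate 3 (-1.18, 0.0617).

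Among the genes higher at day 11 in control, Evx1 rose by 1.36 (SE 0.20, limma adjusted p = 3.32e-06) and Pdgfra by 1.08 (SE 0.27, limma adjusted p = 0.00239). Mesp1 rose by 0.65 (SE 0.20, limma adjusted p = 0.011) and Tbx6 by 0.36 (SE 0.09, limma adjusted p = 0.00262). The day 0 and day 11 control arrays did not overlap for 2 of the 8 genes, Gsc and Evx1, against 6.52% of all genes.

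In Nos3-/- cells 0 of the 8 genes passed over the same interval by limma, against 31.1% of all genes in either direction. Without adjustment, 1 of the 8, Evx1, had a p under 0.05, and the share of all genes at that unadjusted threshold is not given here. The changes were 0.59 for Evx1 (limma adjusted p = 0.0707), 0.39 for Mesp1 (0.231), 0.19 for Eomes (0.774), 0.14 for Lhx1 (0.922), -0.03 for Tbx6 (0.892), -0.47 for Pdgfra (0.310), -0.66 for Mixl1 (0.433) and -0.90 for Gsc (0.295). Mesp1 was the 1 gene of the 8 whose Nos3-/- arrays did not overlap between days, against 7.83% of all genes, with all 6 day 11 arrays above all 6 day 0 arrays. Evx1 passed without Nos3-/- day 0 replicate 3 (0.72, 0.0273), without Nos3-/- day 11 replicate 4 (0.69, 0.0430), without control day 11 replicate 2 (0.59, 0.0384), without the Nos3-/- arrays numbered 3 (0.75, 0.0288) and with array weights (0.62, 0.0412). With only the Nos3-/- arrays in the fit, Mesp1 passed (0.39, 0.012).

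Whether the change over time differed between genotypes was tested with the interaction term, the change in Nos3-/- minus the change in control. None of the 8 genes passed by limma, 0 against 1.24% of all genes, while 6 of the 8 had an unadjusted p under 0.05. The share of all genes under 0.05 without adjustment is not given here, so the count of 6 has nothing to be compared with. The estimates were 3.29 for Lhx1 (95% interval 0.99 to 5.59, limma adjusted p = 0.133), 2.97 for Gsc (1.30 to 4.63, 0.0621), 1.60 for Eomes (0.47 to 2.73, 0.137) and -1.54 for Pdgfra (-2.43 to -0.66, 0.0694). Evx1 had -0.77 (limma adjusted p = 0.210), Tbx6 -0.39 (0.173), Mixl1 0.73 (0.678) and Mesp1 -0.25 (0.738). The organizer pair and Eomes thus had positive estimates, with falls that passed in control and changes that did not pass in Nos3-/- cells. Evx1 and the mesoderm genes had negative estimates.

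This term depended on single arrays, over all genes as well as over these 8. Of all 18194 genes, 225 passed it in the main fit, 745 without Nos3-/- day 0 replicate 3 and 1590 with array weights. Without Nos3-/- day 0 replicate 3, 3 of the 8 genes passed: Gsc (3.59, adjusted p = 0.00577), Lhx1 (4.09, 0.0203) and Eomes (1.91, 0.0375). Without both Nos3-/- arrays numbered 3 the same 3 genes passed, at 3.97 (0.000805), 4.77 (0.00232) and 1.86 (0.0379). Gsc also passed without Nos3-/- day 11 replicate 3 (3.35, 0.0198), control day 0 replicate 1 (3.18, 0.0375) or control day 11 replicate 2 (3.17, 0.0455) or 6 (3.09, 0.0486). Lhx1 also passed without Nos3-/- day 11 replicate 3 (3.97, 0.0350), and Pdgfra passed without Nos3-/- day 0 replicate 4 (-1.82, 0.0226) or control day 11 replicate 1 (-1.69, 0.0340). With array weights Gsc (3.29, 0.00209), Lhx1 (3.70, 0.0068) and Pdgfra (-1.44, 0.0204) passed, and Gsc passed without genes below the lower tertile of level (2.97, 0.0489).

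Put in order of mean level, Gsc was highest in control day 0 cells, followed by Nos3-/- day 0, Nos3-/- day 11 and control day 11, and its drop below control day 0 was the 1 step between neighbours that passed in a comparison run here. Lhx1 stood in the order control day 0, Nos3-/- day 11, Nos3-/- day 0, control day 11, and the last 3 group means lay between 8.39 and 8.61. Pdgfra and Evx1 were highest in control day 11 embryoid bodies, followed by control day 0. For Evx1 the mean was 6.58 in control day 0 and 6.57 in Nos3-/- day 11, while for Pdgfra Nos3-/- day 11 had the lowest mean of the 4 groups, 7.95, beside 8.41 in Nos3-/- day 0. The step between control day 11 and control day 0 was the 1 that passed for both. Mixl1 and Eomes were highest in control day 0 cells, at 8.90 and 10.94, and the other 3 groups lay between 6.62 and 7.51 for Mixl1 and between 9.52 and 9.71 for Eomes, with 0 passing differences among those of them that were compared. Mesp1 and Tbx6 were highest in control day 11 embryoid bodies, at 7.03 and 5.02, and the other 3 groups lay between 5.99 and 6.39 for Mesp1 and between 4.66 and 4.70 for Tbx6, again with 0 passing differences among those compared.

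**Figure D3:**
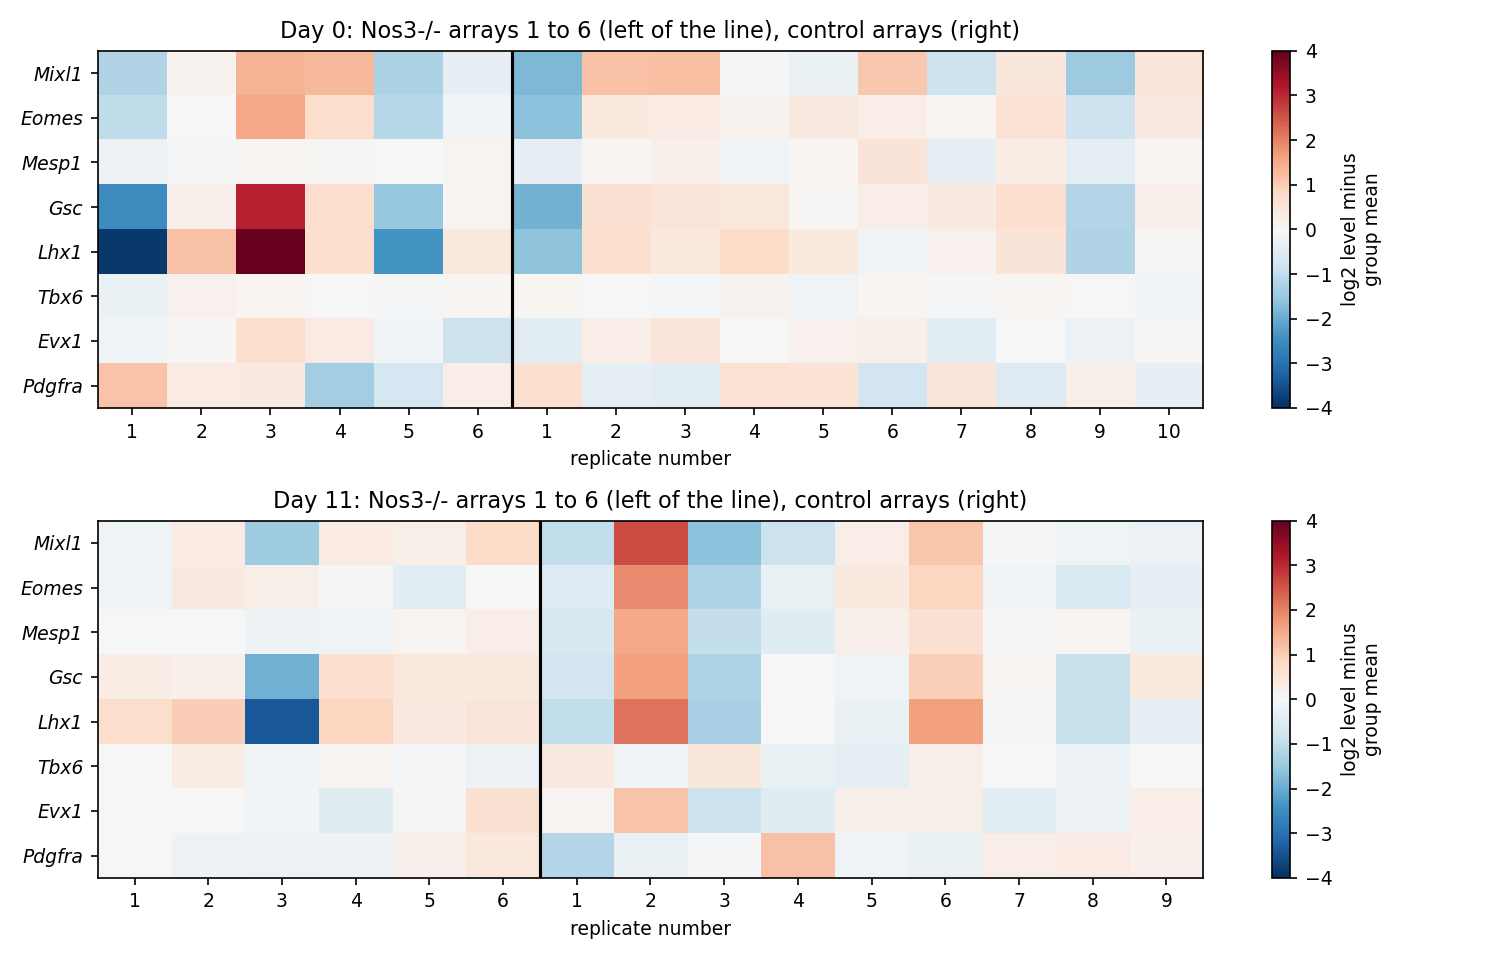
Log2 level of each gene minus its group mean (colour, from -4 in blue to 4 in red) on each array, by replicate number, with Nos3-/- arrays left of the line and control arrays right of it, at day 0 (top) and day 11 (bottom). Nos3-/- day 0 replicate 3 is red for Mixl1, Eomes, Gsc and Lhx1, Nos3-/- day 11 replicate 3 is blue for Mixl1, Gsc and Lhx1, and control day 11 replicate 2 is red for 6 genes.

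Within groups, several of the streak and organizer genes shared their extreme arrays. Nos3-/- day 0 replicate 3 was the highest array of its group for 6 genes (Mixl1, Eomes, Mesp1, Gsc, Lhx1 and Evx1), and control day 11 replicate 2 was the highest of its group for the same 6. Control day 11 replicate 3 was the lowest for these 6, and control day 0 replicate 1 was the lowest for 5 of them, all but Mesp1. Nos3-/- day 11 replicate 3 was the lowest for Mixl1, Mesp1, Gsc, Lhx1 and Pdgfra. The mean of the 8 pluripotency genes ran the other way on several of these arrays. At day 0 it was highest in its group on Nos3-/- replicates 5 and 1 (11.58 and 11.46), the lowest arrays for Gsc and Lhx1, and lowest on Nos3-/- replicate 3 (8.64). In control day 0 cells it was highest on replicate 1 (11.30) and next on replicate 9 (10.98), the 2 lowest arrays for Mixl1, Eomes, Gsc and Lhx1. At day 11 it was low on control replicates 2 and 6 (8.94 and 8.78), the 2 highest for Gsc and Lhx1, whereas Nos3-/- replicate 3 had both the lowest pluripotency mean (7.89) and the lowest Gsc and Lhx1. The part of the pluripotent state in these differences was not tested. The within-group SD pooled over genotypes at day 0 was 1.78 for Lhx1, 1.34 for Gsc, 1.11 for Mixl1, 0.83 for Eomes, 0.69 for Pdgfra, 0.39 for Evx1, 0.24 for Mesp1 and 0.11 for Tbx6.

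Correlations between pairs of genes were computed on values centred on the group mean, with a two-sided permutation test within groups and Benjamini-Hochberg adjustment over the 56 pairs of both days. Each r was also computed without the 2 arrays farthest from the median of 1 gene, the one named earlier in the opening list. For that setting the values were not centred again and the permutations still drew on all arrays, so its p-values are approximate. The share of pairs of other genes that would pass is not given here for either day. The counts of passing pairs thus have nothing to be compared with, and a co-variation particular to these genes was not tested. At day 0 (n = 16 arrays), 14 of 28 pairs passed by Pearson r, 13 of them positive, and 11 of the 14 also passed by Spearman rho. The closest pair was Gsc and Lhx1 (r = 0.967, rho = 0.821, permutation p = 3e-05 and 0.00088, adjusted 0.00042 and 0.00566), with r = 0.984 in Nos3-/- and 0.956 in control cells and 0.954 without the 2 arrays farthest from the median. Eomes followed both, with r = 0.942 for Gsc and 0.867 for Lhx1 (rho = 0.859 and 0.686, adjusted permutation p = 0.000467 and 0.00096 for r), and Mixl1 followed Eomes (r = 0.877, rho = 0.880). Pdgfra had a negative r with each of the other 7 genes at day 0, and 1 of these pairs passed, with Mesp1 (r = -0.600, rho = -0.546, adjusted permutation p = 0.011 for r and 0.076 for rho). Without the 2 farthest arrays that pair missed the threshold (r = -0.504, adjusted permutation p = 0.0754). Pdgfra and Mixl1 missed it with all arrays (r = -0.572, adjusted permutation p = 0.0565) and passed without the 2 farthest (r = -0.681, adjusted permutation p = 0.0202). Tbx6 passed with 0 of the other 7 genes on either day, with adjusted permutation p from 0.0803 to 0.925 by r.

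At day 11 (n = 15 arrays), 13 of 28 pairs passed by Pearson r, all positive, 7 by both measures, and 5 after the 2 farthest arrays were left out. Gsc and Lhx1 again stood close (r = 0.953, rho = 0.871, 0.921 without the 2 farthest arrays). Mixl1 and Mesp1 had r = 0.935 and rho = 0.863, and 0.950 without the 2 farthest arrays. Eomes had correlations of opposite sign in the genotypes on this day: its r with Lhx1 was -0.307 in Nos3-/- and 0.943 in control embryoid bodies, and with Gsc -0.451 and 0.917, a contrast that was not tested. The Nos3-/- values rest on 6 arrays. On replicate 3 of these, Lhx1 was 5.22 and Gsc 4.25, beside 8.97 and 6.36 on the next lowest arrays, while Eomes was 9.95. The r without that array was not computed, so the negative sign may rest on it alone. Pdgfra passed with 0 of the other 7 genes at day 11, with adjusted permutation p from 0.0803 to 0.925 by r.

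**Figure D4:**
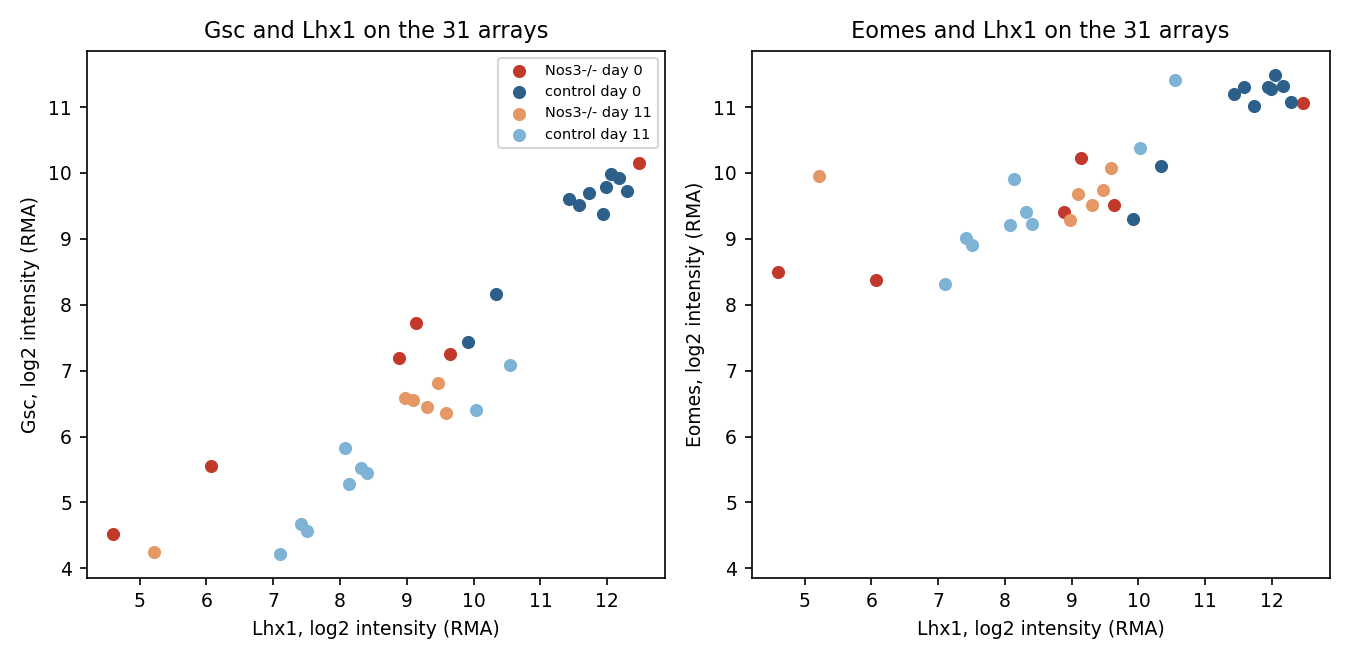
Gsc against Lhx1 (left) and Eomes against Lhx1 (right), log2 RMA intensity, 1 point per array, coloured by group in the legend. The Gsc and Lhx1 points of all 4 groups run upward together, and Nos3-/- day 11 replicate 3 lies at Lhx1 5.22 with a low Gsc value and an Eomes value inside its group's range.

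Genes whose centred levels followed each of the 8 most closely were sought among 16317 others on the day when the gene varied more, as a description with no test; all of them share the arrays and their depth of signal. Lhx1 at day 0 was followed by Amot (r = 0.981), Pkdcc (0.972) and Sox17 (0.970), the last an endoderm transcription factor. Gsc was followed by Dgkk (0.971), Lhx1 (0.967) and Amot (0.965), and Eomes by Arhgef26 (0.985), Slc16a13 (0.969) and Greb1 (0.952). Mixl1 was followed by Rbmx (0.932), Selenoi (0.932) and Aplnr (0.924), the apelin receptor of nascent mesoderm. Pdgfra at day 0 was followed by Smarca2 (0.879), Mmp3 (0.873), a matrix-degrading protease, and Calcrl (0.864). At day 11, Mesp1 was followed by Mixl1 (0.935), L1cam (0.895) and Syndig1 (0.891), Evx1 by Trbv13-2 (0.934), Evx1os (0.879) and Rftn1 (0.855), and Tbx6 by Kifc5b (0.939), Zfp598 (0.933) and Snrnp48 (0.907).

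Other genes of the same steps were read from lists. Of 10 measured genes of the streak and nascent mesoderm, 4 were lower and 1 higher in Nos3-/- cells at day 0, and 3 were lower at day 11. Aplnr differed most at day 0 (-3.05, limma adjusted p = 0.00327), and Cdx2, a posterior homeodomain factor, at day 11 (-1.50, 0.000997). The higher gene at day 0 was Cdx1 (0.44, 0.00409). Fst, a secreted binder of activin, did not pass on either day (-0.58 and -0.86, limma adjusted p = 0.257 and 0.122). From day 0 to day 11, 4 of 10 were higher in Nos3-/- and 5 of 10 in control, and 0 were lower in either genotype, led by Aplnr in Nos3-/- (3.98, 0.000326) and by Cdx2 in control (2.81, 1.51e-09).

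The ligands and cofactors that induce the streak went both ways. Of 11 measured, 2 were higher and 3 lower in Nos3-/- cells at day 0, and 4 higher and 2 lower at day 11. Fgf8, which cells need to leave the streak, was lower at day 0 (-1.42, limma adjusted p = 0.0323), and Gdf3, a Nodal-related ligand, was higher (1.29, 0.0113). At day 11 Fgf4 was higher (2.85, 2.27e-06) and Bmp4, an inducer of posterior streak, lower (-1.10, 0.0315). The Nodal coreceptor Tdgf1 had 0.56 at day 0 (0.0571) and did not pass on that day. Its day 11 means lay further apart, at 12.61 ± 0.53 in Nos3-/- and 11.09 ± 0.55 in control embryoid bodies (SD). Foxh1, a nuclear partner of Nodal signalling, had 0.02 at day 11 (0.980) and did not pass on that day. At day 0 the Foxh1 means lay further apart, at 8.75 ± 0.61 in Nos3-/- and 9.62 ± 0.33 in control iPSCs (SD). The calls of these 2 genes on the day of the wider gap are not given here. The median change of the list was 0.14 at day 0 and 0.11 at day 11.

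Organizer and anterior endoderm genes followed Gsc and Lhx1 in direction at day 0. Of 11 measured, 3 were lower and 0 higher in Nos3-/- cells, Cer1 most (-1.96, limma adjusted p = 0.0371), a secreted Nodal and Wnt inhibitor, and the list had a median change of -0.84. Lefty1, an extracellular Nodal inhibitor, had -0.56 at day 0 (0.251). At day 11, 1 of 11 passed, Lefty1, which was higher in Nos3-/- embryoid bodies (2.25, 1.94e-05), and the head homeodomain factor Otx2 had 0.54 (0.537). Lefty1 was also the 1 gene of the list that passed the interaction term (2.81, 0.00208), and the 11 estimates of that term ran from 0.12 to 3.14. In control, 8 of 11 fell and 1 rose between days, with Cer1 falling by 4.46 (5.58e-07) and Shh rising by 1.37 (0.0191), while in Nos3-/- cells 2 fell and 1 rose.

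Paraxial mesoderm genes mostly did not pass: of 13 measured, 1 was higher and 1 lower in Nos3-/- cells on each day. These were Tcf15, a factor of somites (0.97 at day 0, limma adjusted p = 0.000435, and 0.60 at day 11, 0.0324), and Rspo3, a secreted enhancer of Wnt signalling (-1.66 at day 0, 0.00237, and -2.54 at day 11, 1.61e-05). Dll3, a Notch ligand of the somite clock, had -0.23 and 0.01 (0.490 and 0.988). In the platelet-derived growth factor family, the other receptor, Pdgfrb, was lower in Nos3-/- cells on both days (-1.13, 0.0107, and -1.66, 0.000361), and the 4 ligands did not pass on either day. Pdgfa, a ligand of Pdgfra, had 0.11 and 0.27 (0.681 and 0.337).

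Markers of other cell types moved with some of these results. Genes listed as markers of feeder fibroblasts, a cell type that carries Pdgfra and Pdgfrb, were lower in Nos3-/- cells for 2 of 10 at day 0. At day 11, 6 of the 10 were lower and 1 higher. Their mean level ran from 9.44 to 10.63 in Nos3-/- and from 9.74 to 11.14 in control iPSCs, and from 7.83 to 8.82 in Nos3-/- and from 8.43 to 10.23 in control embryoid bodies. Postn, a matrix protein, differed most at day 11 (-3.76, limma adjusted p = 3.66e-08), and Col1a1, a fibrillar collagen chain, at day 0 (-1.26, 0.0269). The 1 gene that passed as higher at day 11 was S100a4, a calcium-binding protein (1.73, 0.0130). Thy1 and Prrx1 also had higher means in Nos3-/- than in control embryoid bodies, 7.19 against 6.52 and 7.59 against 7.14. Over time in control, 2 of the 10 listed genes rose and 5 fell. Whether the day 11 transcripts of this list came from feeders was not tested. The collagen genes Col3a1 at day 0 (-0.75, 0.227) and Col1a2 at day 11 (-0.54, 0.214) did not pass. The part of fibroblasts in the Pdgfra difference was not tested.

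Primitive and visceral endoderm genes, whose cells also carry Pdgfra and Eomes, were lower in Nos3-/- cells for 3 of 10 at day 0 and for 8 of 10 at day 11, and 0 were higher. Their mean level ran from 6.09 to 7.39 in Nos3-/- and from 6.81 to 9.26 in control iPSCs, and from 5.97 to 7.89 in Nos3-/- and from 7.77 to 11.97 in control embryoid bodies. Sox17 differed most at day 0 (-2.55, limma adjusted p = 0.0174), and Cubn, an endocytic receptor, at day 11 (-4.15, 0.000934). Dab2, an endocytic adaptor, had -0.67 at day 0 (0.323) and Sox17 had -0.82 at day 11 (0.602). Trophoblast genes, which share Eomes, were lower for 2 of 5 at day 0 and for 0 of 5 at day 11, with Elf5 lowest (-1.44, 0.00445). Tfap2c had 0.95 and 0.33 (0.0750 and 0.695).

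Pluripotency genes were higher in Nos3-/- cells for 2 of 8 at day 0 and for 3 of 8 at day 11, led on both days by Nanog (1.44, limma adjusted p = 0.00439, and 1.25, 0.0176). The list did not go 1 way: Zfp42, another gene of the pluripotent state, had -1.37 and -1.35 without passing (0.134 and 0.211), Pou5f1 had 0.13 at day 0 (0.697) and Klf4 0.10 at day 11 (0.947). Heart muscle genes passed for 0 of 6 at day 0 and for 1 of 6 at day 11, Ryr2, the calcium release channel (-1.29, 0.0181). Actc1, the cardiac actin, had -1.15 and -0.77 (0.227 and 0.565). The part of each of these cell types in the differences of the 8 genes was not tested.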

How the data were processed

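RNA of 31 samples was measured on 1 Affymetrix array each. The authors used RMA to summarise the arrays, per the submitters' processing notes, and deposited log2 intensities. The scale was checked on the numbers, which range from 2.32 to 15.01, with array medians of 6.13 to 6.23. The table holds 45101 probe sets, of which 34958 carry 1 gene symbol in the platform annotation, 932 several and 9211 none. No scan date or batch is given in the sources used here, and the number of arrays limits the precision.

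From these values limma 3.58.1 in R 4.3.3 fitted a mean per group on all 31 arrays with an empirical Bayes variance (27 residual and 2.80 prior degrees of freedom), with Benjamini-Hochberg adjustment over 18194 genes. Errors after ± are SDs between arrays, and SE is that of the moderated fit. Correlations used 100000 permutations within groups, with 56 pairs in the family, and the fit was tested on simulated data. All 8 genes are named in every comparison, and from each gene list, for the genotype comparisons, the passing gene with the largest change at either end and, of those that did not pass, the one whose probe set had the highest mean signal, which sets the choice and compares no expression. Over time only some of the genes this rule allows are named. Zfp42 was named after its values were seen. The genes T, Noto, Fbn1 and Prl3d1 of the lists are not analysed here. The members and the lists were chosen with earlier results of these data known. Alternatives were quantile normalization, centring on array medians, filters on dim genes, other probe sets, variance models, array weights, fewer arrays, a replicate block, and the omission of single arrays.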

Additional observations from a re-analysis of the deposited data

Results flagged for a closer look

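Within groups of 4 to 10 arrays, the gap between an extreme array and its nearest neighbour was compared with the range of the group by Dixon's test, in 32 combinations of gene and group, and 2 had an outlying array. Chance marks about 1 in 20 such groups. Gsc was at 4.25 on Nos3-/- day 11 replicate 3, with the next array of the group at 6.36, a gap of 0.824 of the range against a critical value of 0.625. Lhx1 was at 5.22 on the same array, with the next at 8.97, a gap of 0.858 of the range. That array also had the lowest mean of heart muscle genes in its group (5.43, with the other 5 arrays between 7.44 and 10.16) and of primitive and visceral endoderm genes (5.97, with the others between 7.35 and 7.89). Its Eomes level was inside the range of its group and its Pdgfra level was the lowest by a small margin. The cause was not tested.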

How the results depend on the processing

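Of 1240 values for the 8 genes with 1 array left out, 1194 kept their direction and their side of the threshold, 17 lost a call, 21 gained one and 8 changed sign. In a comparison of 2 groups, leaving out an array of another group could change the p but not the estimate. Many of the 1240 values therefore could not change sign. Under the other alternatives, 385 of 407 were unchanged in this sense, 3 lost a call, 16 gained one and 3 changed sign. Quantile normalization, centring on array medians and averaging all probe sets of a gene changed 0 calls and 0 signs of the 8 genes. The values that changed sign had not passed: Eomes at day 11 was -0.085 with array weights, and the change over time in Nos3-/- was 0.10 for Gsc and 0.014 for Tbx6 without the Nos3-/- arrays numbered 3 (chosen after seeing the data), and with 1 array left out ran from -0.037 to 0.50 for Eomes, from -0.63 to 0.94 for Lhx1 and from -0.087 to 0.023 for Tbx6. With 1 array left out, 2 to 5 of the 8 genes passed at day 0, 0 to 1 over time in Nos3-/-, and 0 to 3 for the interaction term. The interaction term passed for 3 genes with array weights, 3 without the arrays numbered 3, and 1 without genes below the lower tertile of level. Over time in Nos3-/-, 1 gene passed with array weights, with only the arrays of the 2 groups, and without the arrays numbered 3. Leaving out genes below the median level removed Mesp1, Gsc, Tbx6 and Evx1 from the test, so that 1 of 4 passed at day 11 and 4 of 4 over time in control. The share of all genes that passed under that filter is not given here.

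Over all genes, 3029 passed at day 0, 1764 at day 11, 5658 over time in Nos3-/-, 6227 over time in control and 225 for the interaction term. Day 0 ran from 1471 to 4142 with 1 array left out and was 4671 without the arrays numbered 3. The interaction term ran from 88 to 745, and was 1315 without those arrays and 1590 with array weights. Day 11 was 3939 with array weights and 1121 without genes below the median level, where the time counts were 3756 in Nos3-/- and 3835 in control. That filter took the dimmer genes out of the test, so its counts cannot be set against those out of 18194 genes. The Nos3-/- time count was 3679 with only its own arrays. At day 11, 7 pairs of the 8 genes correlated by Spearman rho and 5 without the 2 farthest arrays, by the approximate p described above, against 13 by Pearson r.

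Replicate numbers are shared between groups, and the main fit did not pair the arrays by them. Same-numbered arrays deviated together with r from -0.27 to 0.35. Arrays correlated best with their own number in 0 of 6 pairs between genotypes at day 0 and 0 of 6 at day 11. Over time this held for 3 of 6 pairs in Nos3-/- and 1 of 9 in control. Whether same-numbered Nos3-/- arrays share a source is not known. With the replicate block, 4 of the 8 genes passed at day 0, 2 at day 11 (Tbx6 missed, -0.36, adjusted p = 0.0655), 0 over time in Nos3-/-, 8 over time in control and 0 for the interaction term, with 2118, 1423, 5587, 6084 and 165 of all genes. The low signal of Tbx6 and the small number of arrays limit what these data can show.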
